A study of Argopecten irradians irradians with 6 samples.

Results

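MicroRNAs of the miR-133 family were examined in a bay scallop, Argopecten irradians irradians, whose adductor muscle shuts its valves. The family comprised every row of the count table whose name, after the species prefix, is miR-133 with any letter, copy or arm suffix, which gave 130 of 5446 rows. Rows with identical counts in all 6 libraries were merged, which left 44 distinct count profiles of miR-133 among 1005 in the whole table. Small RNAs had been sequenced from the orange adductor muscle of the QN Orange strain (3 libraries) and the white adductor muscle of the Bohai Red strain (3 libraries), and per the design text 9 muscles per strain were pooled by 3. The labels give no age, treatment or rearing condition. Strain and muscle colour change together, so their parts in a difference cannot be told apart, and the spread within a strain is the spread between pools. The columns are named by letters only. B was read as Bohai Red and G as QN Orange, and every direction below rests on that reading.

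A microRNA is cut from a hairpin precursor, whose 5p and 3p arms can each yield a mature strand of RNA. The mature strand guides a protein complex to messenger RNAs that it pairs with and represses. miR-133 is a muscle microRNA conserved between insects and vertebrates, and in most animals its mature strand lies on the 3p arm. In mouse muscle cells it favours proliferation and represses serum response factor, while miR-1, which is transcribed with miR-133a in vertebrates, favours differentiation. Vertebrate miR-133a and miR-133b differ at the end of the mature strand and come from separate genes. The count table lists names of many species, each with the reads assigned to it, so that a scallop read can be counted under many names. The letters a to d, and the arms, are therefore those of the species in the name and not of scallop genes. Species are named from the usual miRNA prefixes. The deposited files pair no sequence with the names, and none is printed.

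Levels are given in CPM, counts per 1000000 of a library size made from 1 row per family, the most abundant one, and scaled by the trimmed mean of M values (TMM). These library sums before scaling were 2092825 to 3758980 counts in orange and 3167068 to 4001516 counts in white muscle. As a check on the tissue, the muscle families miR-133 and miR-1 ranked 2 and 4 in mean count, with 1 row per family, and the neural marker families (miR-124, miR-9, miR-137 and miR-219) summed to between 19.8 and 57.8 CPM in 5 of the 6 libraries. The exception was orange replicate 1, with a neural sum of 686 CPM, of which most was miR-124 with 2554 counts, against 21 to 96 counts in the other 5 libraries. The epithelial and sensory families (miR-8, miR-200, miR-263, miR-183 and miR-96) summed to 4810, 2534 and 2808 CPM in orange replicates 1 to 3, against 7514, 1583 and 1458 CPM in white replicates 1 to 3. Of these 5, miR-200 had 1 count in all. The gut and digestive gland families were miR-375, miR-194, miR-216 and miR-122. They summed to 1196 to 2654 CPM in orange and 2286 to 2975 CPM in white muscle. Most of that was miR-216, with 4949, 4217 and 4462 counts in orange replicates 1 to 3, against 13918, 9258 and 7614 in white muscle. miR-375 went the other way, with 74, 52 and 438 counts in orange, against 37, 27 and 46 in white muscle. miR-194 had 35, 15 and 52 counts in orange, against 9, 18 and 13 in white muscle. miR-122 had 12 counts in orange replicate 3 and at most 1 elsewhere. miR-217 had no row with a count and was not analysed here.

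Only the predicted miRNA Contig117_4460 had a higher mean count than miR-133, and the level of miR-133 did not differ between the strains beyond the spread of the pools. Its most abundant row, dpe-miR-133, carries the name of the fruit fly Drosophila persimilis and held 830893, 538671 and 723832 counts in orange replicates 1 to 3, against 987656, 951469 and 883213 counts in white replicates 1 to 3. Scaled to CPM the row was at 196492, 333698 and 208496 in orange muscle, against 195551, 304258 and 263141 in white muscle. The orange libraries held both the highest value and a value next to the lowest, and the groups overlapped throughout. The orange libraries averaged 246229 ± 75988 CPM and the white ones 254317 ± 54888 CPM (SD, n = 3 each). The log2 difference, orange minus white, was -0.047 (SE 0.267, adjusted p = 0.921, edgeR quasi-likelihood test with Benjamini-Hochberg adjustment over 142 families), while 9.15% of the 142 families were called. The median family lay at 0.20, so that miR-133 was at -0.25 relative to it. The sign of the fitted difference rests on single pools, since leaving out orange replicate 1 gave 0.059 and leaving out white replicate 3 gave 0.0355. Its size rests on the scaling, with -0.36 under DESeq2 size factors, where the median family lay at -0.07, and -0.86 under upper-quartile factors, where the median family lay at -0.39. In pooled tissue, fewer muscle cells and less miR-133 per cell cannot be told apart.

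**Figure D1:**
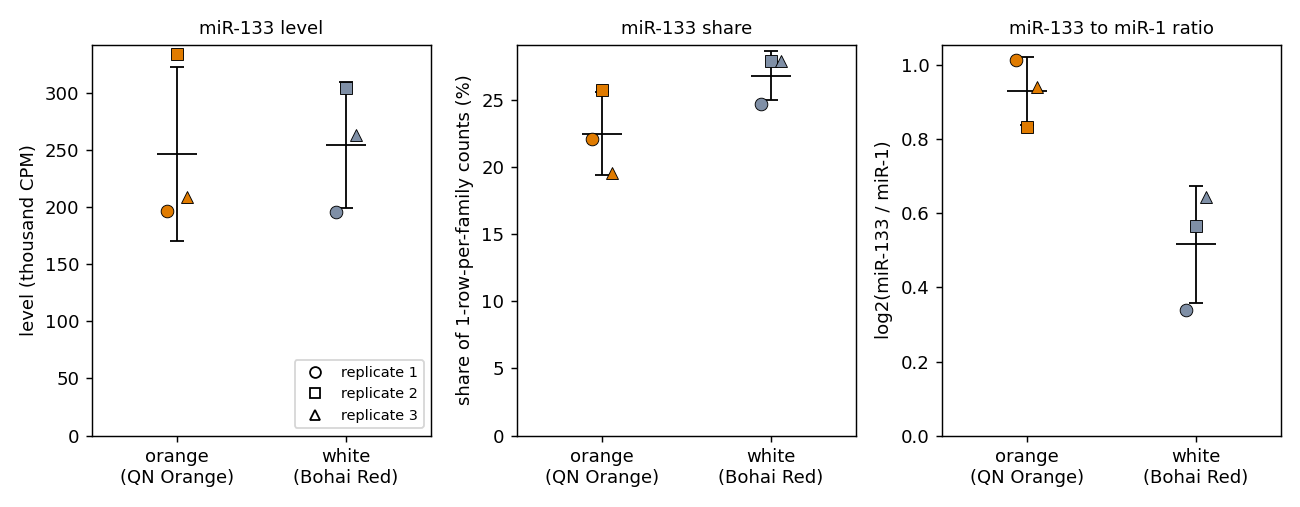
Level of miR-133 (dpe-miR-133, CPM, drawn in units of 1000), its share of the 1-row-per-family counts (percent) and its log2 ratio to miR-1, by strain; symbols are the 3 libraries of a strain, the horizontal mark is the mean and the bar 1 SD. Level and share overlap between orange and white muscle, whereas the ratio to miR-1 lies between 0.83 and 1.02 in orange and between 0.34 and 0.64 in white muscle.

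The within-library share needs no scaling between libraries. With 1 row per family, dpe-miR-133 took 22.1%, 25.7% and 19.6% of the counts in orange replicates 1 to 3, against 24.7%, 27.9% and 27.9% in white replicates 1 to 3. Orange replicate 2 lay above white replicate 1, and otherwise the orange libraries were lower. The difference of the means was -4.33 percentage points (exact two-sided permutation p = 0.2, n = 3 each, where the smallest possible p is 0.1). When all 44 profiles were summed and divided by the sum over all distinct profiles, the share was 30.9%, 34.9% and 27.8% in orange, against 38.0%, 41.5% and 41.5% in white muscle, and the groups no longer overlapped (difference -9.12 percentage points, exact permutation p = 0.1, n = 3 each). That sum counts a miR-133 read many times over, and how often depends on the names listed for each family.

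Set against miR-1, the other abundant muscle family, miR-133 was higher in each orange library than in each white one. The level of miR-1 was 97226, 187185 and 108478 CPM in orange replicates 1 to 3, against 154566, 205606 and 168407 CPM in white replicates 1 to 3. Orange replicate 2 lay among the white libraries and the other orange libraries below them. In the fit over families miR-1 stood at -0.43 log2 units, orange minus white (SE 0.281, adjusted p = 0.347, edgeR). This did not pass, and it is farther below 0 than the value of miR-133. The log2 ratio of miR-133 to miR-1 was 1.02, 0.83 and 0.94 in orange replicates 1 to 3, against 0.34, 0.57 and 0.64 in white replicates 1 to 3, a difference of 0.41 without overlap (exact permutation p = 0.1, n = 3 each, the smallest p this design allows). Of the 616 other profiles that could be tested and had a count in every library, 37.0% also had ratios to dpe-miR-133 that separated the strains. The third muscle family with counts, miR-206, had 1 to 7 counts in orange and 3 to 8 in white libraries. miR-208, miR-499 and miR-486, which in vertebrates are encoded within muscle and blood cell genes, had no row with a count. Their levels were therefore not analysed here.

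The 44 profiles fell on a ladder of levels that followed the letters of the names in part. A first level held 17 profiles and 72 names, each at 94.9% to 100% of the dpe-miR-133 counts of the same library. Below it, 5 profiles (8 names) averaged 12707 to 40423 counts per library, 11 profiles (37 names) 1037 to 4630, 4 profiles (4 names) 150 to 920, and 7 profiles (9 names) under 100. Among miR-133a names, 33 of 35 lay in the first level, and among names with no letter 37 of 52. No miR-133b name did: 27 of 31 lay between 1000 and 10000 counts. Of the 10 miR-133c names, 5 lay between 10000 and 100000, and both miR-133d names, from 2 species of clawed frog, shared a profile at 1037 counts. Letters did not map onto profiles 1 to 1, since 6 profiles held names of more than 1 letter class. In the first level, 4 profiles that together hold 42 names differed by at most 5 counts in any library, so most of these names repeat the same reads. The human names show the step between letters: hsa-miR-133a-3p has the counts of the profile aca-miR-133a (826025, 536502 and 720674 counts in orange, against 983831, 947869 and 878823 in white muscle), whereas hsa-miR-133b has those of chi-miR-133b (2732, 1744 and 1941 counts in orange, against 3198, 2848 and 2337 in white muscle).

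**Figure D2:**
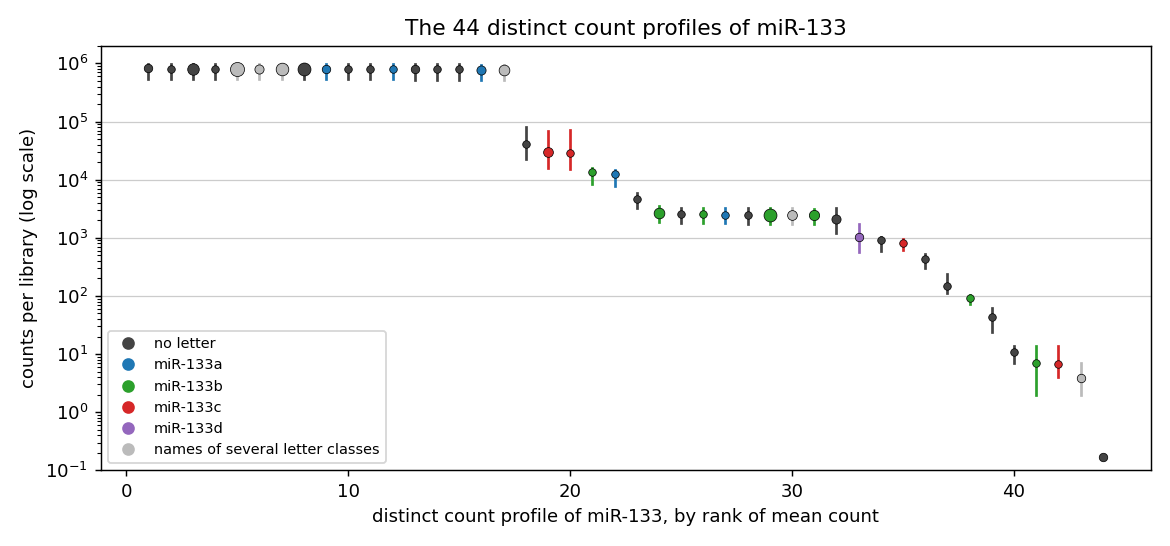
Counts of the 44 distinct miR-133 profiles, ranked by mean count over the 6 libraries, on a log scale; colours are letter classes, points are means, with an area that grows with the number of names, and vertical lines span the lowest to the highest library (none is drawn for the last profile, which is at 0 in 5 libraries). The 17 profiles over 100000 counts stand apart from the next, at 40423 counts.

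The names of molluscs, the phylum of scallops, stood far apart on this ladder. lgi-miR-133-3p, of the limpet Lottia gigantea, belonged to the profile ame-miR-133-3p of 8 names, with 826176, 536558 and 720774 counts in orange and 983937, 947972 and 878943 counts in white muscle. mle-miR-133-3p, of the sea slug Melibe leonina, had 484, 300 and 403 counts in orange and 522, 525 and 404 counts in white muscle. Names of other invertebrates were spread as widely. cte-miR-133 of the annelid Capitella teleta was in the first level, and sme-miR-133a-3p of the planarian Schmidtea mediterranea had 14252, 7634 and 11177 counts in orange and 14324, 13997 and 14859 counts in white muscle. The tapeworm names egr-miR-133-3p and emu-miR-133-3p shared 1 count, in orange replicate 1.

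Names that state an arm were almost wholly 3p, with 67 names on 3p, 2 on 5p and 61 with no arm given. Of the 61 names without an arm, 43 had counts identical to a 3p name, and 9 of these also to a 5p name. The more abundant 5p name, bbe-miR-133-5p of the lancelet Branchiostoma belcheri, also had the counts of 3p names, among them dme-miR-133-3p of the fruit fly Drosophila melanogaster. The log2 ratio of the 5p to the 3p arm, taken on the most abundant row of each arm, was therefore close to 0 in every library, and its strain difference was -0.00016 (exact permutation p = 0.3, n = 3 each). Since both rows hold nearly the same reads, this ratio could hardly differ between the strains and does not compare the arms. The other 5p name, tur-miR-133-5p of the spider mite Tetranychus urticae, was chosen for a second ratio after these values were seen. It had 235, 131 and 111 counts in orange replicates 1 to 3, against 126, 129 and 170 counts in white replicates 1 to 3. Relative to tur-miR-133-3p these are 0.0284%, 0.0244% and 0.0154% in orange, against 0.0128%, 0.0136% and 0.0193% in white muscle. Orange replicates 1 and 2 lay above all white libraries and orange replicate 3 among them. The log2 ratio differed by 0.56 between the strains (exact permutation p = 0.2, n = 3 each). The fit over all profiles put tur-miR-133-5p at 0.53 log2 units, orange minus white (SE 0.536, adjusted p = 0.576, edgeR). Leaving out white replicate 1 gave 0.19, leaving out orange replicate 2 gave 0.22, leaving out white replicate 3 gave 0.82, and upper-quartile factors gave -0.34.

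Of the 44 profiles, 40 had enough counts to be tested, and none was called in either direction by edgeR (lowest adjusted p = 0.385 over 634 profiles). None of the 40 had an unadjusted p under 0.05, none was called by the DESeq2 test, and in none did the CPM of the strains separate. Over all 634 profiles tested, edgeR called 0.00%, 20.7% had an unadjusted p under 0.05, and 33.6% had strains that did not overlap. The 40 are not 40 measurements, since 17 of them are nearly the same reads. The median log2 difference was -0.02 over the 40 and 0.17 over all profiles, with 20 of the 40 above 0 and 20 below. All 17 profiles of the first level lay between -0.053 and -0.047, and those between 1000 and 10000 counts lay between 0.01 and 0.22 (SE 0.333 to 0.389). The lowest value was -0.060, for ppc-miR-133-3p of the nematode Pristionchus pacificus, at 7 to 11 counts in orange and 11 to 14 counts in white libraries. The 4 profiles that could not be tested had at most 14 counts in a library.

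**Figure D3:**
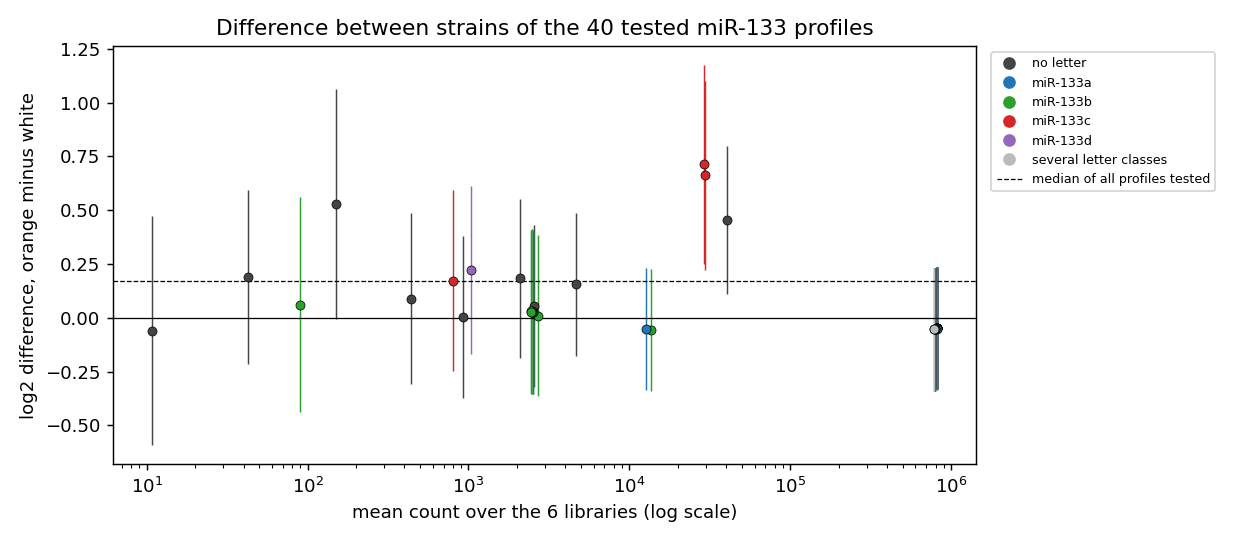
Log2 difference (orange minus white, with 1 SE) of the 40 tested miR-133 profiles against their mean count over the 6 libraries, on a log scale; colours are letter classes. The abundant profiles coincide between -0.053 and -0.047, and the highest values, 0.71 and 0.66, are miR-133c profiles.

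Ratios to dpe-miR-133 within a library compared the letter and arm classes without any scaling. Each class was represented by its most abundant row, and 9 classes were compared. In 6 of the 9 that row was in the first level, and its strain difference lay between -0.000785 and -0.000625 log2 units. For miR-133b with the 3p arm (ami-miR-133b-3p, of the alligator Alligator mississippiensis) the log2 ratio averaged -8.23 ± 0.15 in orange libraries and -8.27 ± 0.13 in white libraries (SD, n = 3 each; exact permutation p = 0.8). For miR-133b with no arm (xla-miR-133b, of the frog Xenopus laevis) the orange libraries averaged -5.92 ± 0.12 and the white ones -5.93 ± 0.09 (SD, n = 3 each; exact permutation p = 0.8). For miR-133d (xla-miR-133d) the orange libraries averaged -9.56 ± 0.59 and the white ones -9.81 ± 0.11 (SD, n = 3 each; exact permutation p = 0.9). Adjusted over the 9 classes, p was 0.75 to 0.90. The 6 first-level ratios could hardly differ between the strains, since those rows hold nearly the same reads as dpe-miR-133. Both miR-133c classes are among these 6, with the rows mml-miR-133c-3p and cfa-miR-133c. The comparison thus did not cover the miR-133c rows below the first level, which are described further below. The most abundant miR-133b row lay far under the most abundant miR-133a row in all 6 libraries. In the fit over all profiles, the values for orange minus white were 0.01 for ami-miR-133b-3p (SE 0.374, adjusted p = 0.990, edgeR), -0.056 for xla-miR-133b (SE 0.283, adjusted p = 0.971) and 0.22 for xla-miR-133d (SE 0.389, adjusted p = 0.767). That of xla-miR-133d was -0.0092 without orange replicate 1, and with DESeq2 size factors those of ami-miR-133b-3p and xla-miR-133d were -0.30 and -0.077. Of the other profiles with a count in every library, only mle-miR-133-3p had ratios that separated the strains, at 0.0583%, 0.0557% and 0.0557% of dpe-miR-133 in orange, against 0.0529%, 0.0552% and 0.0457% in white muscle. The share over the 616 profiles was 37.0%, a set without profiles of too few counts to be tested. The other first-level rows hold nearly the same reads as dpe-miR-133, so the count of 1 is not read against that share.

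Relative to dpe-miR-133, a few less abundant profiles stood apart in orange replicate 1, most of all the pair of miR-133c profiles between 10000 and 100000 counts. pbv-miR-133c-3p, of the Burmese python, had 71058, 15230 and 15957 counts in orange replicates 1 to 3, against 29918, 23802 and 17741 counts in white replicates 1 to 3. cli-miR-133c-3p, which stands for 4 names including that of chicken, had 69719, 15999 and 16902 counts in orange, against 31175, 25033 and 18764 counts in white muscle. Both were highest in orange replicate 1, while orange replicates 2 and 3 lay below all white libraries in counts. Orange replicate 2 is the smallest library, and in CPM it lay above all white libraries, with only orange replicate 3 below them. cli-miR-133c-3p was at 16487, 9911 and 4869 CPM in orange replicates 1 to 3, against 6172, 8005 and 5590 CPM in white muscle. pbv-miR-133c-3p was at 16804, 9435 and 4596 CPM in orange, against 5924, 7611 and 5286 CPM in white muscle. As a share of dpe-miR-133, cli-miR-133c-3p was at 8.39%, 2.97% and 2.34% in orange, against 3.16%, 2.63% and 2.12% in white muscle. The value in orange replicate 1 was 3.16 times the mean of the other 2 orange libraries, and it was 3.40 times that mean for pbv-miR-133c-3p. The sea squirt name cin-miR-133-3p moved in the same way, at 9.85%, 4.16% and 3.65% in orange and 4.39%, 3.88% and 3.58% in white muscle. So did, to a smaller degree, xla-miR-133d, whose share was 0.211% in orange replicate 1 and 0.102% to 0.120% in the other 5 libraries, and lva-miR-133-3p, shared by 2 sea urchins and a sea star, whose share was 0.398% in orange replicate 1 and 0.212% to 0.241% in the others. No such step was present for the abundant profiles or for ami-miR-133b-3p, at 0.357%, 0.350% and 0.296% in orange and 0.353%, 0.328% and 0.296% in white muscle. Nor was it a trait of every miR-133c name: oan-miR-133c, of the platypus, had 859, 621 and 713 counts in orange, against 915, 946 and 739 counts in white muscle. The remaining miR-133c profiles below the first level were highest in orange replicate 1, at few counts. dre-miR-133c-3p had 14, 5 and 4 counts in orange, against 5, 5 and 8 in white muscle. The profile gmo-miR-133b-3p, which holds ipu-miR-133c, had 7, 2 and 2 counts in orange, against 4, 3 and 5 in white muscle.

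**Figure D4:**
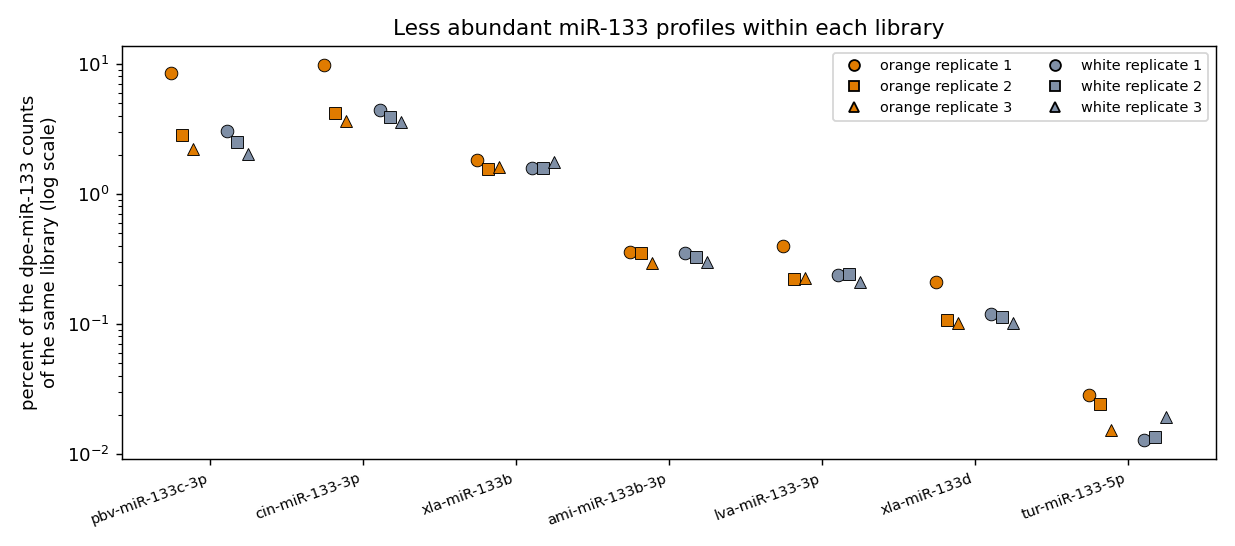
Counts of 7 less abundant miR-133 profiles as a percentage of the dpe-miR-133 counts of the same library, on a log scale; colours are strains and symbols are replicates. Orange replicate 1 stands above the other 5 libraries for pbv-miR-133c-3p (8.55% against 2.01% to 3.03%), cin-miR-133-3p, lva-miR-133-3p and xla-miR-133d.

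In the fit, pbv-miR-133c-3p had the highest log2 difference of the family, 0.71 (SE 0.462, adjusted p = 0.385, edgeR), followed by cli-miR-133c-3p at 0.66 (SE 0.439, adjusted p = 0.386). cin-miR-133-3p, below tur-miR-133-5p in this order, was at 0.45 (SE 0.345, adjusted p = 0.448). None passed. Without orange replicate 1 the values of pbv-miR-133c-3p, cli-miR-133c-3p and cin-miR-133-3p were 0.14, 0.14 and 0.08, and with upper-quartile factors on all libraries they were -0.10, -0.15 and -0.37. Orange replicate 1 is also the library with the high neural sum of 686 CPM, against 57.8 CPM at most elsewhere. In it, miR-9 had 261 counts and miR-137 had 84, against 9 to 163 and 0 to 14 in the other libraries. miR-219 had 0 counts there and 0 to 19 elsewhere. The epithelial and sensory sum of orange replicate 1 was 4810 CPM. White replicate 1 had 7514 CPM and the other libraries 1458 to 2808 CPM. The part of other tissue in the miR-133c values was not tested.

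Across the 6 libraries, miR-133 in CPM had centred log2 values of -0.32, 0.45 and -0.23 in orange and -0.32, 0.32 and 0.11 in white muscle. Of 49 other families with at least 100 counts in every library, the closest to this pattern was the predicted miRNA Contig210_8054, with a root mean square difference of 0.14 log2 units. It was followed by miR-2 (0.22), miR-317 (0.23), miR-1 (0.23) and miR-307 (0.23), where the median family was at 0.50. These distances describe 6 libraries that share 1 scaling, and they carry no test.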

How the data were processed

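The authors deposited whole-number counts per miRNA name, with no normalization, in a table of 6 columns. Per the design text, each column is a pool of 3 adductor muscles. The trimming, aligner and reference set are not given in the sources used here. A second table, with 9 per-sample columns that carry 3 other names, was not used. Identical rows were merged. Levels were fitted in R 4.3.3 with edgeR 4.0.16 (TMM, filterByExpr by group, glmQLFit with robust = TRUE, glmQLFTest, Benjamini-Hochberg threshold 0.05), over 142 families with 1 row each, and over 634 distinct profiles on the same library sizes (TMM factors 0.771 to 1.26). SE is the log2 difference divided by the square root of F. Names share reads, so adjusted p-values lack their nominal meaning. For ratios and shares, all regroupings of the 6 libraries were enumerated (exact permutation, two-sided). The scripts were tested on simulated data. Alternatives were other scalings, no filter, DESeq2 1.42.0, a replicate block, left-out libraries, other denominators and summed rows. Named rows were the most abundant of each letter and arm class, called profiles, the lowest and highest difference, a muscle list (miR-1, miR-206, miR-208, miR-499 and miR-486) and the 5 families closest in pattern; others named were chosen after their values were seen. The members, lists and tests were chosen with earlier results of these data known. Counting error is small beside the spread between pools for the abundant rows, and it limits rows under 100 counts. Separate pools are stated, so p-values measure the spread between pools.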

Additional observations from a re-analysis of the deposited data

How the results depend on the processing

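No miR-133 profile was called in any of the 15 alternatives, and the fitted family difference crossed the threshold in none. The exact permutation tests of shares and ratios could not cross it, since their smallest p is 0.1. Their staying above it is therefore no result. Some signs turned, as listed below. Over all families the calls numbered 13, but 20 with library totals, 29 with no filter, 33 by the DESeq2 test and 0 to 20 without 1 library each (20 without white replicate 1, 0 without white replicate 2 or 3). Over all profiles they numbered 0, but 11 with DESeq2 size factors, 72 with library totals, 71 with upper-quartile factors, 36 by DESeq2, 4 with TMM factors of the profiles themselves, 78 without both libraries numbered 1 and 0 to 69 without 1 library each (69 without white replicate 1). The median family lay at 0.20 under TMM, -0.07 under DESeq2 size factors, -0.01 under library totals and -0.39 under upper-quartile factors.

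The family's log2 difference was 0.0409 on the sum over all rows and -0.30 to 0.0593 without 1 library each, and -0.86 with upper-quartile factors; dpe-miR-133 among profiles had the same range, -0.30 to 0.0593. With upper-quartile factors the difference turned to -0.37 for cin-miR-133-3p, -0.15 for cli-miR-133c-3p, -0.10 for pbv-miR-133c-3p, -0.34 for tur-miR-133-5p, -0.60 for xla-miR-133d and -0.78 for ami-miR-133b-3p. Without both libraries numbered 1 it turned to -0.11 for cin-miR-133-3p, -0.0018 for cli-miR-133c-3p, -0.00035 for pbv-miR-133c-3p, -0.23 for xla-miR-133d and -0.12 for ami-miR-133b-3p. With TMM factors of the profiles themselves it turned to -0.0777 for cin-miR-133-3p, -0.31 for xla-miR-133d and -0.51 for ami-miR-133b-3p. DESeq2 size factors gave -0.0766 for xla-miR-133d and -0.30 for ami-miR-133b-3p, as did the DESeq2 test (-0.0763 and -0.30), and library totals gave -0.20 for ami-miR-133b-3p. Without 1 library each, the ranges were -0.27 to 0.13 for ami-miR-133b-3p, -0.51 to 0.16 for ppc-miR-133-3p, -0.32 to 0.0855 for xla-miR-133b, -0.0092 to 0.44 for xla-miR-133d, 0.19 to 0.82 for tur-miR-133-5p and 0.14 to 1.07 for pbv-miR-133c-3p (0.14 without orange replicate 1). For these turns of sign the cause was not tested.

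The share of miR-133 stayed lower in orange muscle in all 12 alternatives (-9.12 to -2.89 percentage points), and the ratio of miR-133 to miR-1 stayed higher in all 10 (0.28 to 0.48). The arm ratio was 0.56 with the 5p row whose counts are unlike those of a 3p row. Of the ratios to dpe-miR-133, without both libraries numbered 1 those of miR-133a with and without the 3p arm and of miR-133c with the 3p arm were 0.00026, as were miR-133c with no arm (0.00026) and the 5p class (0.00026); the 3p class with no letter was at 0.00032, miR-133b with no arm at -0.0816 and miR-133d at -0.0350. With the most abundant row outside the first level, chosen after seeing the data, they were 0.0215 for miR-133a with the 3p arm, 0.0473 for miR-133a with no arm, 0.57 for miR-133c with and without the 3p arm, 0.43 for the 3p class and 0.55 for the 5p class. Without 1 library each, they ranged from -0.0013 to 2.1e-05 for miR-133a with and without the 3p arm and miR-133c with the 3p arm, -0.0013 to 1.9e-05 for miR-133c with no arm, -0.0012 to 7.5e-05 for the 3p class, -0.0013 to 2.0e-05 for the 5p class, -0.0317 to 0.12 for miR-133b with the 3p arm, -0.0581 to 0.0595 for miR-133b with no arm and -0.0876 to 0.44 for miR-133d.

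The replicate numbers were not taken to pair the libraries. Deviations of libraries with the same number correlated at 0.20, -0.03 and 0.15 over 142 families. Orange replicates 1 and 3 correlated best with the white library of the same number, and orange replicate 2 with white replicate 3 (0.16). Correlations this weak do not decide whether the numbers pair the libraries. With the replicate block the family difference was -0.07 (adjusted p = 0.740, edgeR), 12 families and 62 profiles were called, none of them miR-133, and ami-miR-133b-3p was at -0.0299.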
